A study of Mus musculus with 2 samples.

Results

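The 9 genes described here are the erythroid regulators Gata1, Klf1 and Epor, the adult globin genes Hbb-bt, Hbb-bs, Hba-a1 and Hba-a2, and the carbonic anhydrase genes Car1 and Car2. They are 9 of the 34745 genes in the tables, and were chosen by name with their values in the same 2 libraries already known, so their differences between the libraries are a description and carry no test. RNA-seq was performed on BM LSKs (Lin-Sca1+c-Kit+ bone marrow cells, a sort that holds hematopoietic stem cells and multipotent progenitors) of Scl/tTA-BA mice on the C57BL/6 background. These mice carry a tetracycline transactivator under Scl regulatory sequences and a BCR/ABL (BA) transgene that it drives once doxycycline is absent. The week-0 library, labelled as the control, came from mice kept on doxycycline, and the week-3 library from mice at 3 weeks after its withdrawal. LSKs of 3 mice were mixed for each library, and both groups carried both transgenes. Age and sex are not given in the sources used here. Withdrawal of doxycycline and expression of BA changed together and cannot be told apart.

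Red cells arise from stem cells through erythroid progenitors, and GATA1 is the transcription factor on which this lineage depends. GATA1 acts with KLF1, a zinc finger factor that binds CACCC boxes and activates the adult beta globin genes, and with erythropoietin, whose receptor EPOR keeps erythroid progenitors alive. The alpha and beta globin chains pair to form hemoglobin. Carbonic anhydrases convert carbon dioxide to bicarbonate, and CAR1 and CAR2 are the abundant cytosolic forms of the red cell. Lin- sorting removes cells with the red cell surface protein TER119 that mature red cell precursors carry.

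RefSeq promoter windows of GRCm38.p6 were found for 7 of the 9 genes, the regulators and the globins. They are shown because motifs read by GATA1 and KLF1 lie in them and because the near-identical copies of each globin share or do not share them. The sequences run 5′ to 3′ on the strand of the gene and hold the longest stretch between 210 bases before the RefSeq start and the start that lies in no GENCODE exon of the gene. Capitals mark GATAA, CCNCNCCC (a form of the CACCC box), CCAAT and ATATAA (a form of the TATA box), searched on both strands, so that a GATAA on the opposite strand reads TTATC and a CCAAT reads ATTGG. The windows are chrX:7967911-7968120 on the minus strand for Gata1, chr8:84901772-84901927 on the plus strand for Klf1, chr9:21963577-21963786 on the minus strand for Epor, chr7:103827929-103828011 on the minus strand for Hbb-bs, chr7:103813997-103814133 on the minus strand for Hbb-bt and chr11:32296282-32296488 on the plus strand for Hba-a2.
Gata1: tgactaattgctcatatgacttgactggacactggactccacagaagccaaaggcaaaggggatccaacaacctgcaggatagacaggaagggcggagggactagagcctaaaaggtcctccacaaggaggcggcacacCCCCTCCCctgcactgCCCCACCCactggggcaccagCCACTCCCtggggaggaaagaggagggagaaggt
Klf1: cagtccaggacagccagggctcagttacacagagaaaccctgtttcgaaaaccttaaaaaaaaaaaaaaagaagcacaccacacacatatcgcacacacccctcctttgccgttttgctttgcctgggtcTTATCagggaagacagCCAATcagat
Epor: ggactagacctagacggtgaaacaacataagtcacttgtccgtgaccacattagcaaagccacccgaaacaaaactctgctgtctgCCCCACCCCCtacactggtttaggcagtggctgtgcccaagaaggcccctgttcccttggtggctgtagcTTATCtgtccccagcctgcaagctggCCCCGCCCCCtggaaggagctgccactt
Hbb-bs: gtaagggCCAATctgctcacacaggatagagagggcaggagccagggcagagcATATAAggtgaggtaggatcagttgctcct
Hbb-bt: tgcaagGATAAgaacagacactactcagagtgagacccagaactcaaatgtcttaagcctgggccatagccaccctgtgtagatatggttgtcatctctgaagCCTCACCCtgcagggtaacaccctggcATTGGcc
Hba-a2: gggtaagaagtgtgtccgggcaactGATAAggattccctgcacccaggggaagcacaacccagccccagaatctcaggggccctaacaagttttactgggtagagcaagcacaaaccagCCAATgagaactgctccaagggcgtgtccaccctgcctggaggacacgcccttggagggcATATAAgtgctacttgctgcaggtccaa

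Within the 250 bases before the start, GATAA was found in 4 of 4 globin promoters and in 2 of 3 regulator promoters, Klf1 and Epor, against 22.6% of the 32851 RefSeq promoters of the same length. ATATAA was found in 4 of 4 globin promoters and 0 of 3 regulator promoters, against 9.10% of all. CCAAT was found in 4 of 4 globin promoters and in that of Klf1 among the regulators, against 33.8% of all. CCNCNCCC was found in Hbb-bs and Hbb-bt but in neither alpha globin promoter, and in Gata1 and Epor, against 45.9% of all. Not every match lies in the stretches printed above. The GATAA and CCNCNCCC of Hbb-bs and the ATATAA of Hbb-bt lie outside them. In Epor the CCNCNCCC matches lie in overlapping pairs, and no match to 1 motif overlaps a match to another in the sequences above. The promoters of Hba-a1 and Hba-a2 shared a run of 247 identical bases, shifted by 3 bases relative to the start, so that the sequence of Hba-a2 stands for both. The longest run shared by Hbb-bs and Hbb-bt was 14 bases. These matches describe the letters only. The Gata1 window lies before the RefSeq start, which is inside the span of the gene in GENCODE.

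The library totals on genes were 6356164 week-0 reads and 3886695 week-3 reads, and a floor of 3 reads equals 0.472 and 0.772 RPM (reads per 1000000 reads on genes). A gene was counted as higher at week-3 when its FPKM (the reads of a gene scaled by its exon length and by the library total) was at least 2 times that of week-0, and as lower when it was at most 0.5 times, among the 13689 genes with at least 10 reads over both libraries. By this rule 11.9% of the genes tested were higher and 17.9% were lower, and their median log2 ratio was 0.05. Of the 9 genes, all of which had enough reads, 8 were lower, 0 were higher and 1, Gata1, was neither. Because the genes were chosen on this contrast, nothing is read from that count against the background. With 1 library per time point, no spread between mice can be given, and the 95% intervals below are exact Clopper-Pearson intervals of the counts, which cover counting error only since amplified reads are not independent molecules. Of the 9 intervals, 8 lay below a log2 ratio of 0 and 6 lay below a fall of 2 times. In bulk libraries, fewer cells of a type and less RNA per cell cannot be told apart.

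**Figure D1:**
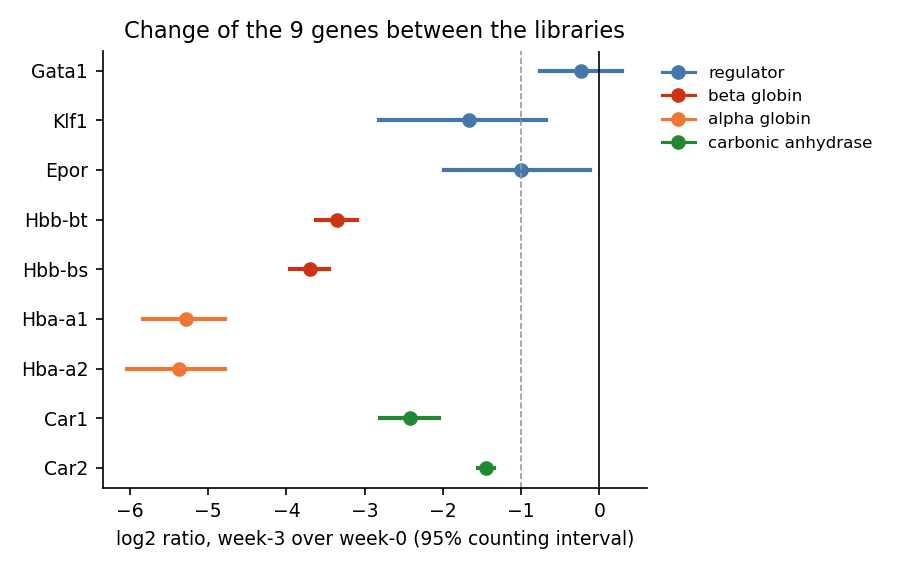
Log2 FPKM ratio of week-3 over week-0 for each of the 9 genes (points) with 95% exact counting intervals (bars), 1 library per time point; the solid line marks no difference and the dashed line a log2 ratio of -1. The alpha globins lie farthest from 0, at -5.28 and -5.37, and Gata1 is the gene whose interval crosses 0.

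Among the regulators, Gata1 (ENSMUSG00000031162, chromosome X of GRCm38, from 7959260 to 7978071) was close to level. It had 92 week-0 reads and 48 week-3 reads, and its FPKM was 5.24 and 4.47. Its log2 ratio was -0.23 (95% interval -0.76 to 0.29), so a difference was not detectable at this depth, and its ratio stood at percentile 38.3 of the genes tested. Klf1 (ENSMUSG00000054191, chromosome 8, from 84901928 to 84905295) had 52 week-0 reads and 10 week-3 reads, an FPKM of 5.33 against 1.68. The log2 ratio of Klf1 was -1.67 (-2.81 to -0.68), 3.18 times lower at week-3. Klf1 and Gata1 thus had nearly the same FPKM at week-0 and different ones at week-3. The exon lengths behind the FPKM, described below, affect every comparison of FPKM between genes, also those that follow. The ratio of Klf1 reads to Gata1 reads within a library was 0.565 at week-0 and 0.208 at week-3, a change of 0.370 times (95% exact interval 0.154 to 0.820).

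Epor (ENSMUSG00000006235, chromosome 9, from 21958899 to 21963576), the erythropoietin receptor gene, had 46 week-0 reads and 14 week-3 reads. The FPKM of Epor was 3.96 and 1.97, a log2 ratio of -1.01 (-1.98 to -0.12). At 2.01 times lower it stood just inside the limit of 2, and it is not counted as lower when the ratio is taken on log2(FPKM + 1) or when edgeR's exact test is added. Reads of Epor relative to Gata1 were 0.5 at week-0 against 0.292 at week-3, and the interval of that change, 0.269 to 1.21 times, includes 1. The 3 genes whose FPKM in the 2 libraries lay nearest to those of Gata1 on log2(FPKM + 0.1) were Slc25a13 (5.21 and 4.52), Gpkow (5.31 and 4.52) and Hist1h4h (5.32 and 4.35).

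The beta globin genes were among the most abundant of the 9 at week-0. Hbb-bt (ENSMUSG00000073940, chromosome 7, from 103812524 to 103813996) had 2193 week-0 reads and 131 week-3 reads, an FPKM of 491 against 47.9. Its log2 ratio was -3.36 (-3.62 to -3.10), 10.2 times lower. Hbb-bs (ENSMUSG00000052305, chromosome 7, from 103826534 to 103828096) had 3032 week-0 reads and 143 week-3 reads, an FPKM of 275 against 21.2. The log2 ratio of Hbb-bs was -3.70 (-3.95 to -3.45), 13.0 times lower. The 2 intervals overlapped, and the ratio of Hbb-bs to Hbb-bt reads was 1.38 at week-0 and 1.09 at week-3, a change of 0.790 times with an interval of 0.614 to 1.02 that includes 1.

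The alpha globin genes differed more. Hba-a1 (ENSMUSG00000069919, chromosome 11, from 32283511 to 32284465) had 2036 week-0 reads and 32 week-3 reads, an FPKM of 268 against 6.90. The log2 ratio of Hba-a1 was -5.28 (-5.83 to -4.78), 38.9 times lower. Hba-a2 (ENSMUSG00000069917, chromosome 11, from 32296489 to 32297298) had 1556 week-0 reads and 23 week-3 reads, an FPKM of 234 against 5.65. Its log2 ratio of -5.37 (-6.03 to -4.78), 41.4 times lower, stood at percentile 0.146 of the genes tested. The ratio of Hba-a1 to Hba-a2 reads was 1.31 at week-0 against 1.39 at week-3, and the change of 1.06 times had an interval of 0.60 to 1.91. In FPKM rank among the 34745 genes, Hba-a1 stood at 179 at week-0 and at 4730 at week-3.

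The copies of each globin have nearly identical coding sequences, so sums are safer than the values of each copy. The untranslated parts of the exons were not compared. The coding sequences of Hba-a1 and Hba-a2 in GENCODE M21, of 426 bases, differed at 1 base, and those of Hbb-bs and Hbb-bt, of 441 bases, also differed at 1 base. Of all stretches of 100 bases in these coding sequences, 85.9% were identical between the alpha copies and 92.7% between the beta copies. The paper states paired-end reads of 100 bases, and a pair can span more than 1 such stretch. These shares are therefore not the shares of reads that fit both copies. How the authors divided reads that map to both copies is not given in the sources used here. Summed over the 4 genes, globins had 8817 week-0 reads and 329 week-3 reads. That is 1387 RPM (95% exact interval 1358 to 1416) against 84.6 (75.7 to 94.3), or 0.139% and 0.00846% of all reads on genes. The log2 ratio of the sum was -4.03 (-4.20 to -3.88), 16.4 times lower at week-3.

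Alpha and beta globin reads did not change by the same factor. The alpha sum was 3592 week-0 reads and 55 week-3 reads, 39.9 times lower in RPM. The beta sum was 5225 week-0 reads and 274 week-3 reads, 11.7 times lower. Within a library the ratio of alpha to beta reads was 0.687 at week-0 and 0.201 at week-3. The change in this ratio, 0.292 times (95% exact interval 0.214 to 0.393), does not depend on how the libraries are scaled or on gene length, and like the values it is built from it is a description of these 2 libraries. Its interval excludes 1. Those of the changes between the copies of each chain include 1. Because the copies are nearly identical and the division of shared reads is not known, these latter intervals cannot show whether the copies changed alike.

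**Figure D2:**
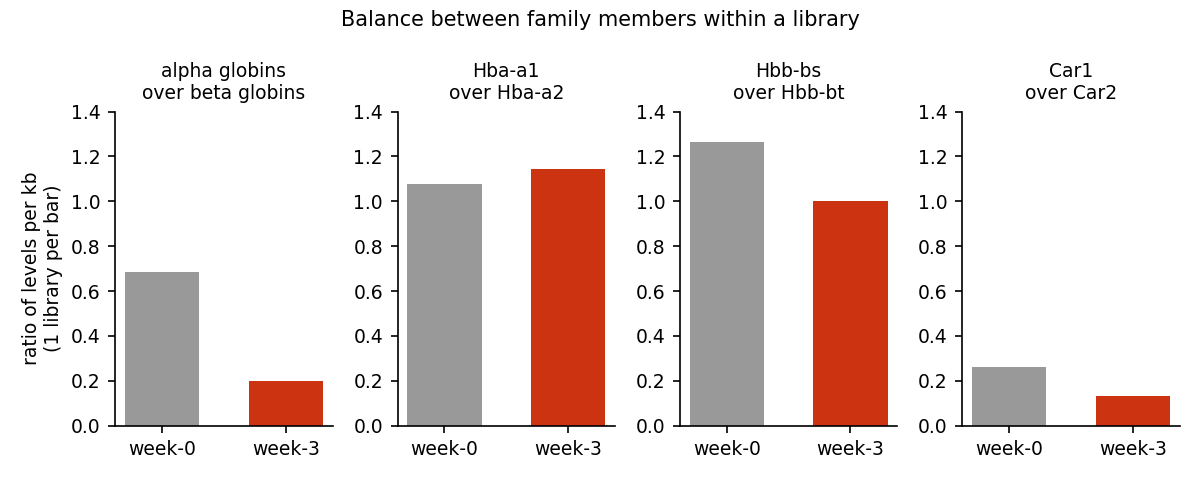
Ratio of levels per kilobase of merged exons between family members within the week-0 library (grey bars) and the week-3 library (red bars), 1 library per bar, without error bars. Alpha over beta globin was 0.685 at week-0 against 0.198 at week-3, Car1 over Car2 was 0.261 against 0.133, while Hba-a1 over Hba-a2 was 1.07 and 1.14 and Hbb-bs over Hbb-bt 1.27 and 0.999.

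Car1 and Car2 lie close together on chromosome 3 of GRCm38. Car1 (ENSMUSG00000027556, from 14766216 to 14808368) had 593 week-0 reads and 68 week-3 reads, an FPKM of 50.9 against 9.54. The log2 ratio of Car1 was -2.41 (-2.80 to -2.05), 5.33 times lower. The pseudogene Gm16399 overlaps Car1 on the same strand in GENCODE. Car2 (ENSMUSG00000027562, from 14886273 to 14900770) had the most reads of the 9 genes in both libraries, 4410 at week-0 and 990 at week-3. Its FPKM was 227 against 83.3, a log2 ratio of -1.45 (-1.55 to -1.35), 2.72 times lower. The ratio of Car1 to Car2 reads was 0.134 at week-0 and 0.0687 at week-3, a change of 0.511 times (0.388 to 0.664). The genes nearest to Car1 in FPKM in the 2 libraries included Pigt (48.5 and 9.56) and Nfkb2 (49.7 and 10.1).

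The deposited FPKM is not a fair measure for comparing these genes with each other. The exon length behind an FPKM can be read back from the reads, the total and the FPKM. In 68.1% of 12643 genes it equalled, within 1 base, the summed length of all distinct exons in GENCODE M21, in which exons that overlap between transcripts are counted more than once, and in 12.2% it equalled the length of the merged exons. Hbb-bs was given 1734 bases against 768 of merged exon, Hba-a1 1193 against 812, Hba-a2 1048 against 667 and Car1 1833 against 1248, while Hbb-bt was given 703 and has 703. The length given to Hbb-bs also differs from its summed exons, 1379 bases, and Epor was given 1829 bases against 1989 of merged exon, so this account does not cover every gene. Hence Hbb-bs, with more reads than Hbb-bt, had the lower FPKM. The length is the same in both libraries, so the ratios between week-0 and week-3 are not affected.

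With RPM divided by kilobases of merged exon, the order of the levels at week-0 was Hbb-bs (621), Hbb-bt (491), Hba-a1 (394), Hba-a2 (367), Car2 (286), Car1 (74.8), Gata1 (5.94), Klf1 (5.35) and Epor (3.64). Exact Poisson intervals of neighbours overlapped between Hba-a1 and Hba-a2, between Gata1 and Klf1 and between Klf1 and Epor. At week-3, Car2 (105) stood first, before Hbb-bt (47.9), Hbb-bs (47.9), Car1 (14.0), Hba-a1 (10.1), Hba-a2 (8.87), Gata1 (5.07), Epor (1.81) and Klf1 (1.68). The intervals of the beta globins overlapped there, as did each step from Car1 to Gata1 and that between Epor and Klf1. Hba-a2, 367 against 5.94 of Gata1 at week-0, had an interval that overlapped that of Gata1 at week-3.

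**Figure D3:**
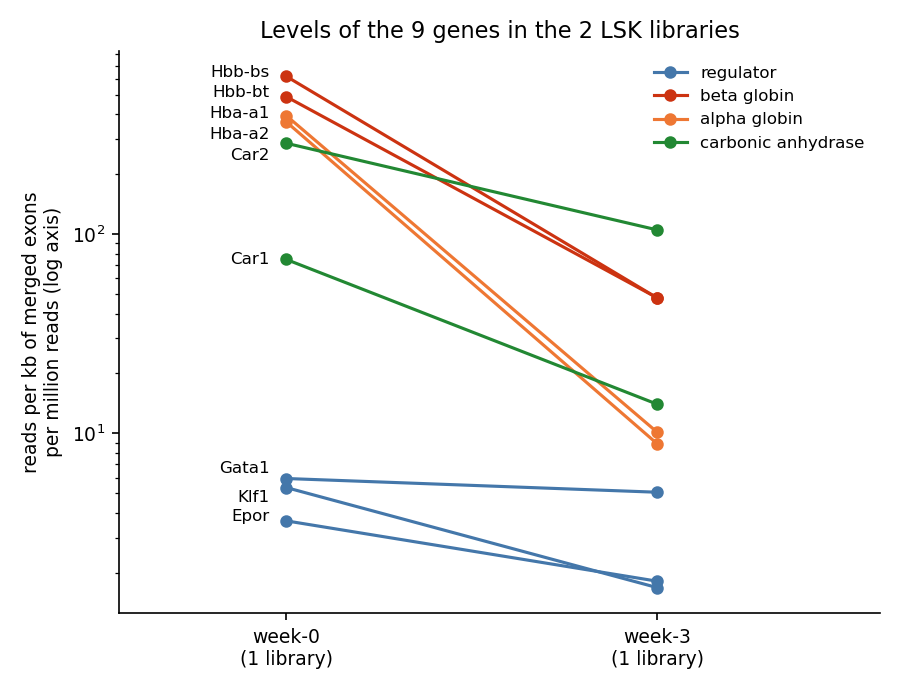
Level of each of the 9 genes in the week-0 and week-3 libraries, in RPM per kilobase of merged exons on a log axis, 1 point per library. The lines of the alpha globins fall from 394 and 367 to 10.1 and 8.87 and cross those of Car2 and Car1, while the line of Gata1 runs from 5.94 to 5.07.

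Other genes of the erythroid program were taken from lists whose names were written down with earlier results of these data known. A list of 27 genes held mainly transcription factors and cofactors that act with or around GATA1. Of these, 6 were lower (22.2%, near the 17.9% of all genes tested), 1 was higher and 20 were neither. Their median log2 ratio was -0.29, against 0.05 over all genes tested. Several named partners of GATA1 lay within the limits. Tal1, a partner of GATA1 on DNA, had 131 week-0 reads and 110 week-3 reads (log2 ratio 0.46). Gata2, which precedes GATA1 in progenitors, had 896 and 378 (-0.54), Lmo2 had 1658 and 807 (-0.33), Ldb1 had 534 and 227 (-0.52) and Gfi1b, an erythroid and megakaryocytic repressor, had 176 and 123 (0.19). Zfpm1, which encodes the GATA1 cofactor FOG1, was lower with 459 and 87 reads (-1.69, -2.04 to -1.36). Bach1, a heme-regulated repressor of globin and heme oxygenase genes, had 1744 week-0 reads and 120 week-3 reads (-3.15, -3.43 to -2.88). Its small partner Mafk had 935 and 121 (-2.24). The other lower factors were Sox6 (-1.49), Klf3 (-1.30) and Stat5b (-1.27). Myb, which sustains progenitors, was the higher factor with 676 and 875 reads (1.08, 0.94 to 1.23), and with TMM or median-of-ratios scaling 0 of the 27 were higher. Spi1, which encodes PU.1, an antagonist of GATA1, had 2766 and 1740 reads, a log2 ratio of 0.04.

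In signalling by the erythropoietin receptor, 15 genes had enough reads, of which 5 were lower (33.3%, against 17.9% of all genes tested) and 1 was higher (6.67% against 11.9%), with a median log2 ratio of -0.55. On log2(FPKM + 1), 3 of the 15 were lower. The kinase gene Jak2 had 88 week-0 reads and 55 week-3 reads (0.03), and the survival gene Bcl2l1 had 280 and 249 (0.54). Lower were Sh2b3 (987 and 113 reads, -2.42), which encodes the JAK2 inhibitor LNK, the feedback inhibitors Socs1 (374 and 79, -1.53) and Cish (110 and 28, -1.26), Stat5b (857 and 218, -1.27) and Podxl (27 and 4, -2.05). Csf2rb, which encodes the common beta chain of the IL-3 and GM-CSF receptors, was higher with 298 and 665 reads (1.87, 1.67 to 2.07).

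Heme and iron genes were mixed in direction. Of 13 heme synthesis genes, 1 was lower (7.69%, against 17.9% of all genes tested), 2 were higher (15.4% against 11.9%) and 10 were neither, with a median of 0.18. The lower gene was Alas2, the erythroid form of the first enzyme of the pathway, with 49 week-0 reads and 2 week-3 reads (-3.91, -6.99 to -1.98). Alas1, the form used outside the erythroid lineage, had 225 week-0 reads and 1247 week-3 reads (3.18, 2.97 to 3.39), and Cpox had 64 and 87 (1.15). Fech, which inserts the iron, had 221 and 134 reads (-0.01). Of 11 iron genes, 1 was higher (9.09%, against 11.9% of all genes tested) and 1 was lower (9.09% against 17.9%), with a median of -0.46. The transferrin receptor gene Tfrc was higher (140 and 238 reads, 1.48) and the ferritin receptor gene Ncoa4 was lower (779 and 221, -1.11).

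Of 24 red cell membrane and cytoskeleton genes, 19 had enough reads, and 8 of these were lower (42.1%, against 17.9% of all genes tested) and 0 higher, with a median log2 ratio of -0.91. With edgeR's exact test added, 5 of them were lower at an assumed biological coefficient of variation of 0.1 and 0 at 0.4, and with at least 50 reads required 1 was lower. Most of the 8 had few reads. Among them were Aqp1 (148 at week-0 and 37 at week-3), a water channel, the Rh genes Rhd (42 and 1) and Rhag (19 and 3), the anion exchanger gene Slc4a1 (28 and 3), Ermap (27 and 5), Cldn13 (26 and 2) and the ankyrin gene Ank1 (15 and 1). Among 23 erythroid progenitor and red cell enzyme genes with enough reads, 7 were lower (30.4%, against 17.9% of all genes tested) and 3 were higher (13.0% against 11.9%), with a median of -0.62. The 7 became 2 with at least 50 reads required or on log2(FPKM + 1), and with edgeR's exact test 3 at an assumed coefficient of variation of 0.1 and 0 at 0.4. Ces2g (55 reads), Atp1b2 (32) and Cd36 (12) had 0 reads at week-3, and with week-3 set to the floor of 3 reads they were 11.2, 6.52 and 2.45 times lower. Their 95% intervals reached up to log2 ratios of -3.14, -2.32 and -0.76, the last short of a fall of 2 times. The exact test was run only on genes above 0 reads in both libraries, so it could not count these genes. Mt1, which encodes a metallothionein, was higher with 123 and 589 reads (2.97). Over the union of the 8 lists, 111 genes had enough reads, of which 28 were lower and 10 higher, beside 17.9% and 11.9% of all genes tested.

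The remaining globins had few reads, and the remaining carbonic anhydrases had far fewer than Car2. Of 11 other globin genes, 1 had enough reads, the neuronal Ngb with 8 and 5, and the embryonic Hbb-bh1 and Hba-x had 0 reads in both libraries. Of 14 other carbonic anhydrase genes, 7 had enough reads, with a median log2 ratio of -0.15. Of these 7, 2 were lower (28.6%, against 17.9% of all genes tested) and 3 were higher (42.9% against 11.9%). With at least 50 reads required, 1 was lower and 0 were higher. Car13 had 45 week-0 reads and 5 week-3 reads (-2.46) and Car4 had 11 and 0, whereas Car8 had 1 and 11 (4.17), Car12 had 12 and 18 (1.29) and Car7 had 6 and 8 (1.12). The most reads among these 14 genes were those of Car9, 87 and 48 (-0.15), whereas Car1 and Car2 together had 5003 week-0 reads and 1058 week-3 reads, 2.89 times lower in RPM.

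**Figure D4:**
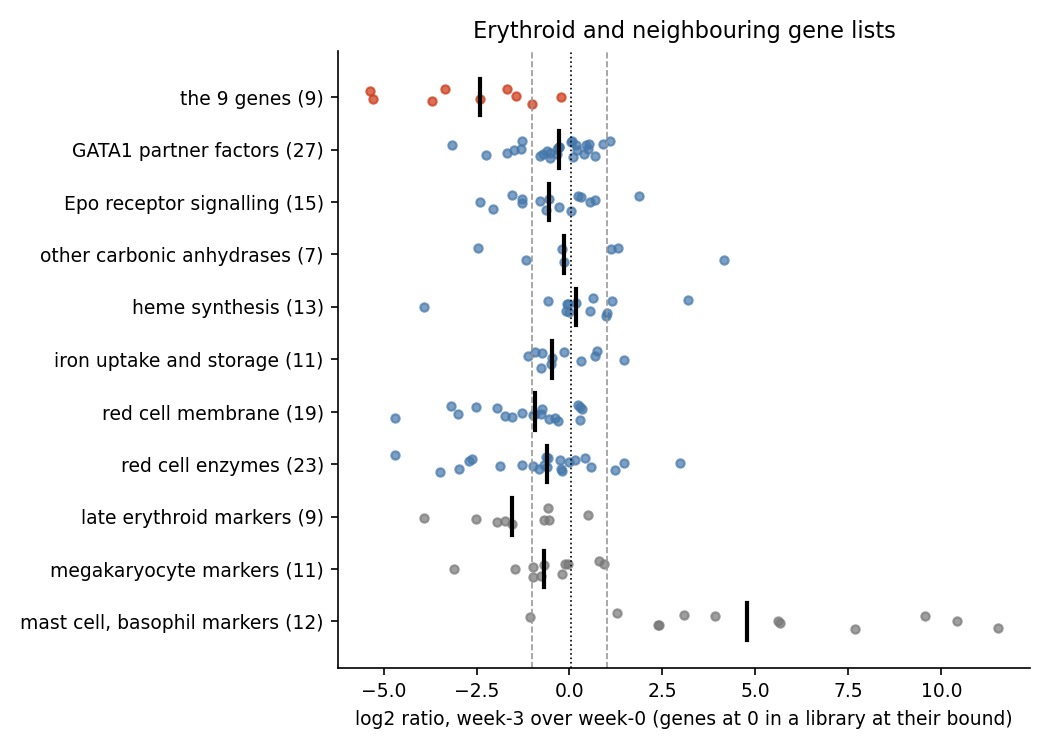
Log2 ratio of week-3 over week-0 for each gene with at least 10 reads (points), by list, with the number of genes in parentheses and the list median as a black bar; the dashed lines mark -1 and 1 and the dotted line the median of all genes tested, 0.05. The 9 genes, chosen on this contrast, have values from -5.37 to -0.23, the heme synthesis genes are spread on both sides of the dotted line, and the mast cell and basophil markers have a median of 4.76.

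Markers of other cell types were counted by the same rule, by which 17.9% of all genes tested were lower and 11.9% higher. The summed FPKM values below cover all markers found, also those with too few reads. Of 9 late erythroid markers with enough reads, 5 were lower (55.6%), all of them genes of the lists above, and 0 higher. The median log2 ratio of the 9 was -1.54, and the summed FPKM of all 11 markers found was 16.2 at week-0 and 8.35 at week-3. With at least 50 reads required or on log2(FPKM + 1) 1 of these markers was lower, and with edgeR's exact test 3 were lower at an assumed coefficient of variation of 0.1 and 0 at 0.4. No late erythroid marker analysed was at 0 in either library, and Epb42 had 1 read in each. Of the 12 mast cell and basophil markers, 11 were higher and 1, Prss34, was lower, and their summed FPKM was 302 at week-0 and 3396 at week-3. Tpsb2 and Mcpt4 were at 0 reads at week-0. Of 14 neutrophil and monocyte markers, 10 were higher and 0 lower (summed FPKM 2254 and 11372), and of 8 B lymphoid markers 0 were higher and 5 lower (297 and 35.4). Of 11 megakaryocyte markers, a lineage that shares GATA1, 2 were lower (18.2%, near the 17.9% of all genes tested) and 0 higher (103 and 91.1). Of 8 eosinophil markers, 4 were lower and 2 higher (319 and 173), and of 6 T and NK markers, 2 were lower and 0 higher (303 and 436). Single genes made up most of some sums. Nkg7 had an FPKM of 279 and 422 in the T and NK sums, and Prg2 had 291 and 155 in the eosinophil sums. Jchain, with 221 and 6.76, made up most of the B lymphoid sum at week-0. The genes of the 2 proteins the sort selects for were present in both libraries, with 1391 and 580 reads for Kit and 434 and 199 for Ly6a, which encodes Sca1. Cd34, an LSK marker that was not sorted on, had 3804 and 1523 reads. Of 12 LSK markers 4 were lower and 1 was higher. The part of these shifts in the values of the 9 genes was not tested.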

How the data were processed

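RNA of sorted BM LSKs was sequenced as 1 library per time point, each from 3 mice mixed together. Per the labels, TopHat2 2.0.9 and the build mm10 (GRCm38) were used. The authors deposited, for each gene, the raw read count and the FPKM, in which that count is divided by exon length and by all reads counted on genes. The counting tool and annotation release are not given in the sources used here. The tables were joined by gene identifier, and groups came from the labelled time. Gene coordinates are those of the deposited tables. Strand, exons and coding sequences come from GENCODE M21 and promoter sequences from RefSeq, both GRCm38.

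Ratios are FPKM at week-3 over week-0 without a pseudocount. Genes with at least 10 reads over both libraries were compared by limits of 2 and 0.5, and 0 reads were set to a floor of 3. Intervals are exact Clopper-Pearson intervals at 95%, the same for shares of reads, or exact Poisson intervals for levels, and cover counting error only. Depth was 6356164 and 3886695 reads. No p-value is given, since 1 library per time point has no replicate error. The procedure was tested on simulated data. The 9 genes, the lists and the fold rule were chosen with earlier results of these data known. The genes named are the 9, the genes of the lists (first those past the limits with most reads and defining genes at 0) and the 3 nearest to Gata1 and to Car1. Results for some genes under this rule are not reported here. Alternatives were TMM and median-of-ratios scaling, other limits on fold and reads, log2(FPKM + 1), log2(FPKM + 0.1) and edgeR's exact test with an assumed biological coefficient of variation. Genes at 0 reads in a library were left out of the exact test and counted as neither under it. Computations used R 4.3.3 with edgeR 4.0.16 and DESeq2 1.42.0, and Python 3.11.15 with scipy 1.17.1, pandas 2.3.3, numpy 2.4.6 and matplotlib 3.10.9. Arrays and cell lines of the study were not used here.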

Additional observations from a re-analysis of the deposited data

How the results depend on the processing

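No paired analysis was possible because each time point has 1 library, and for the same reason no library could be left out. Of 94 alternatives for the main values and counts, 75 stayed within counting error or 1.5 times and 19 moved. A change of sign was looked for only in the log2 ratios of the genes lower by the main rule, and 0 changed sign. Counts and sums could not be labelled as reversed. The 4 globins were lower under every alternative run and Gata1 under none. With edgeR's exact test and an assumed biological coefficient of variation of 0.4, the number of the 9 genes counted as lower was 4, the globins, and Klf1, Epor, Car1 and Car2 were lost, with 29 higher and 87 lower genes over the whole table and 0 higher and 0 lower in the 8 erythroid gene lists together, the lists meant below, while 5 mast cell and basophil markers were higher and 3 B lymphoid markers lower. With 0.1, 1548 genes of the table were lower and Epor was lost. The mast cell markers Tpsb2 and Mcpt4, at 0 reads at week-0, were left out of the exact test and could not be counted. Epor was also lost on log2(FPKM + 1), which left 686 higher and 1068 lower genes in the table and 6 and 13 in the lists. Limits of 1.5 and 0.67 gave 3362 higher and 3692 lower genes in the table and 19 and 43 in the lists, against 1633, 2455, 10 and 28. With at least 50 reads, 917 genes were higher and 1317 lower, and 15 genes of the lists were lower. TMM scaling shifted the median of all genes by -0.11 on the log2 scale and median-of-ratios by -0.09. Under TMM the log2 ratio of Car2 was -1.56 and that of Car1 and Car2 together -1.64. The share of lower genes among those past the limits was 60.1% in the main setting, 66.4% with TMM and 65.4% with median-of-ratios. Of 288 alternatives for the counts of higher and lower genes in each gene and marker list, 73 moved, and list medians were not recomputed. The cause of these differences was not tested beyond what each setting's construction gives, such as fewer genes compared. Depth limits Gata1, Klf1 and Epor, whose week-3 values rest on 48, 10 and 14 reads.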
